A study of Mus musculus with 46 samples.

Results

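The liver of male C57BL/6N mice was compared 1 d after a single dose of carbon tetrachloride (CCl4) with the liver of untreated mice. The comparison rests on 10 of the 46 Affymetrix arrays of a time course. They are the 5 arrays whose titles place them at 1 d and the 5 whose titles name them controls. The mice were 8 to 10 weeks old and carried no engineered allele that the labels name. CCl4 was injected into the abdominal cavity at 1.6 g/kg of body weight in olive oil. The controls are described as untreated, although a treatment field shared by all arrays reads CCl4, so every difference includes the effect of injection and oil. The labels name no time of day. All mice ate a standard diet freely. Arrays of a group carry numbers, but nothing states that each came from a separate animal. The limma p-values reflect the spread within groups, pooled over all 46 arrays, and that spread may be technical. The arrays at 8 h and at 2 d, 5 each, served as neighbours in time.

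Hepatocytes turn CCl4 into a radical. Most of this is done by Cyp2e1, a cytochrome P450 that is most abundant around the central veins of the liver lobule. The radical damages membranes and the endoplasmic reticulum, pericentral hepatocytes die, and the surviving hepatocytes re-enter the cell cycle while monocytes and neutrophils enter the tissue. A damaged liver is also known to make acute phase proteins, to switch on stress genes through the transcription factor ATF4, and to lower much of its metabolic programme.

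Each gene was read from a single probe set on a log2 scale, so a difference of 1 is a 2-fold change. Of 18193 genes, 13239 passed a filter on low values and were tested. The filter counted arrays of all groups, so a gene low in 1 group could pass through another where it was higher. Errors after ± are standard errors of a log2 difference from the limma fit, with 5 arrays in each group, unless an SD is named. A gene was called where its adjusted p was under 0.05. The number of arrays limits the precision, and the median standard error over the genes tested was 0.0966. The labelled tissue was checked with albumin (Alb), the main secreted protein of hepatocytes, which read 14.70 to 14.81 in controls and 14.76 to 14.85 at 1 d.

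The 5 arrays at 1 d did not resemble each other equally. Array 1 correlated with its group mates across genes at a mean r of 0.95 and array 2 at 0.962, against 0.974 to 0.977 for arrays 3 to 5 and 0.987 to 0.990 among controls (genes are not independent replicates). Array 2 lay nearest the controls, with a mean r of 0.947, and array 1 farthest, with 0.868. The SD over arrays was larger at 1 d than in controls for 9666 genes (73.0%), with a median SD of 0.172 against 0.114. The 3 prime minus 5 prime value of the Gapdh control probes, which tracks RNA integrity, was 0.169 ± 0.0926 (SD, n = 5) at 1 d and 0.347 ± 0.0642 (SD, n = 5) in controls (adjusted p = 0.0317, exact permutation test, two-sided). The same value for actin differed by -0.066 (adjusted p = 0.429, same test). The interquartile range of all values averaged 2.602 at 1 d and 2.5 in controls (adjusted p = 0.0317, same test). The array median averaged 5.51 at 1 d and 5.56 in controls (adjusted p = 0.0317, same test). The part of these array measures in the results was not tested, beyond a fit with the Gapdh value as a covariate.

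Rises and falls were about equal in number. Of 13239 genes, 6623 (50.0%) were called, of which 3305 (25.0%) were higher and 3318 (25.1%) lower at 1 d. These shares of all genes are the background for the counts in gene groups below. At least a 2-fold change was called for 991 genes (7.49%), with 519 higher and 472 lower, and at least a 4-fold change for 84 higher and 66 lower. For 4204 genes (31.8%) the 5 arrays of one group all lay beyond the 5 of the other. The median log2 difference over all genes was -0.04. In whole tissue, fewer cells of a type and less RNA per cell cannot be told apart.

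**Figure D1:**
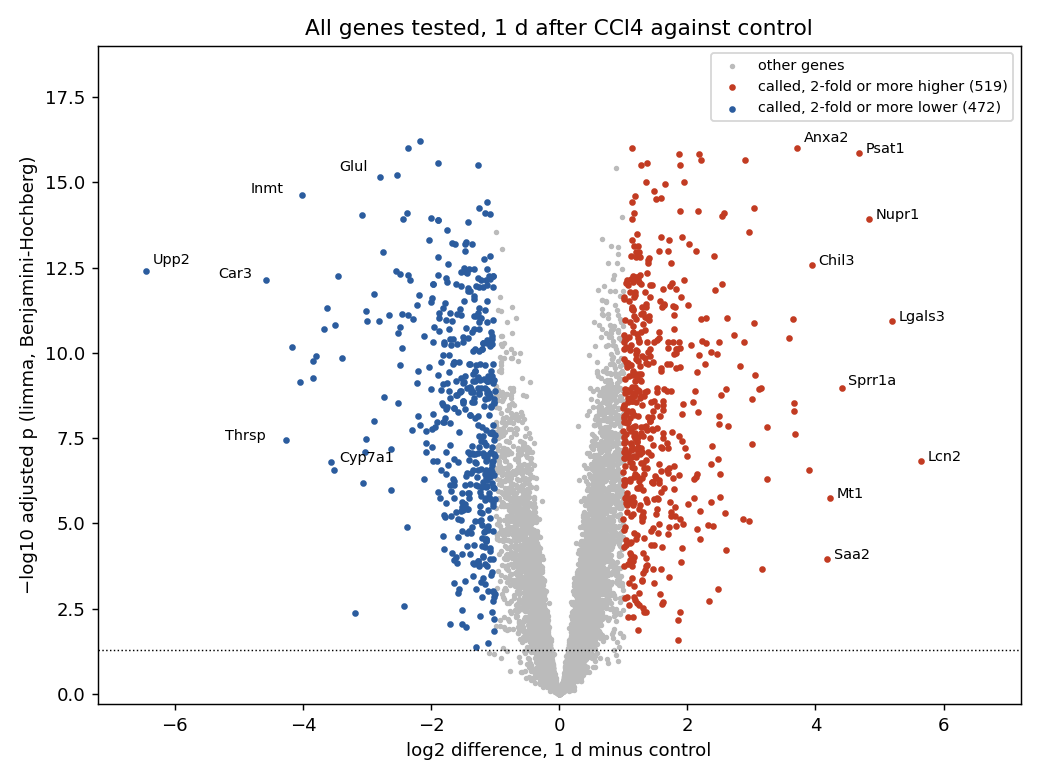
Log2 difference of 1 d minus control (horizontal axis) against −log10 of the adjusted p from limma (vertical axis) for the 13239 genes tested. Called genes changed at least 2-fold are coloured, 519 higher and 472 lower, and some of the genes described are named.

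The largest rise was in lipocalin 2. Lcn2, a siderophore-binding protein of the acute phase, read 6.39, 4.51, 5.25, 5.19 and 6.68 in controls and 8.43, 11.01, 11.88, 12.35 and 12.59 at 1 d. It rose 50.1-fold (5.65 ± 0.80), and array 1 was the lowest of the 1 d arrays but still above every control. Lgals3, a galectin abundant in macrophages and in injured epithelium, read 6.35, 6.48, 6.31, 6.10 and 6.44 in controls and 10.43, 9.71, 12.66, 12.46 and 12.41 at 1 d. It rose 36.7-fold (5.20 ± 0.49), with arrays 1 and 2 below the other three. Sprr1a, a small proline-rich protein of the cornified envelope that injured cells also make, lay between 6.36 and 6.51 in controls. It read 9.24, 8.42, 12.88, 12.06 and 11.60 at 1 d and rose 21.3-fold (4.41 ± 0.50).

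Chil3, a chitinase-like protein of macrophages, was low in controls at 3.66 to 4.03 and read 8.76, 7.76, 7.64, 7.79 and 7.31 at 1 d, a rise of 15.4-fold (3.94 ± 0.32). Anxa2, a membrane-binding annexin, read 7.23 to 7.51 in controls and 11.10, 10.35, 11.60, 11.32 and 11.05 at 1 d. It rose 13.1-fold (3.72 ± 0.22), although its other probe sets ran down to 0.14. S100a6, a calcium-binding protein, rose 12.8-fold (3.68 ± 0.48), from 4.02 to 4.91 in controls to 6.49, 6.51, 9.0, 9.09 and 9.11. Lgals3, Sprr1a and S100a6 share a pattern in which arrays 1 and 2 lay between the controls and arrays 3 to 5, whereas Chil3 was highest on array 1.

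The largest fall was in a liver uridine phosphorylase. Upp2 read 10.67, 10.61, 11.57, 11.12 and 11.82 in controls and 3.33, 6.83, 3.98, 4.16 and 5.26 at 1 d. It fell 87.3-fold (-6.45 ± 0.53), with its probe sets ranging from -6.86 to -1.12. Car3, a carbonic anhydrase abundant in liver, muscle and fat, read 14.04, 14.32, 14.23, 14.22 and 13.98 in controls and 8.44, 11.57, 9.40, 9.63 and 8.87 at 1 d. It fell 23.8-fold (-4.58 ± 0.39). On array 2 both genes were the least reduced.

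Thrsp, a regulator of fat synthesis, read 9.69, 11.63, 12.45, 12.35 and 11.11 in controls and 7.94, 7.79, 6.66, 6.49 and 7.0 at 1 d, a fall of 19.3-fold (-4.27 ± 0.57). Inmt, a methyltransferase of indoles, fell 16.1-fold (-4.01 ± 0.27), from 12.41 to 13.08 in controls to 7.80, 10.03, 8.61, 9.03 and 8.58. Hsd3b5, a male-specific steroid dehydrogenase, fell 14.4-fold (-3.85 ± 0.42). It read 5.62 and 6.16 on arrays 1 and 2 and 8.29, 9.20 and 8.55 on arrays 3 to 5, against 10.23 to 12 in controls, so here both unusual arrays were the lowest. Sucnr1, the receptor for succinate, fell 13.9-fold (-3.79 ± 0.39), Nrep 16.5-fold (-4.04 ± 0.45) and Keg1 12.8-fold (-3.68 ± 0.35). Mup10, a major urinary protein, fell 14.4-fold (-3.85 ± 0.40), a value that is uncertain because its family holds near-identical copies. The long RNA Hectd2os fell 18-fold (-4.17 ± 0.42), from 7.16 to 8.27 in controls to 2.09 to 4.77.

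**Figure D2:**
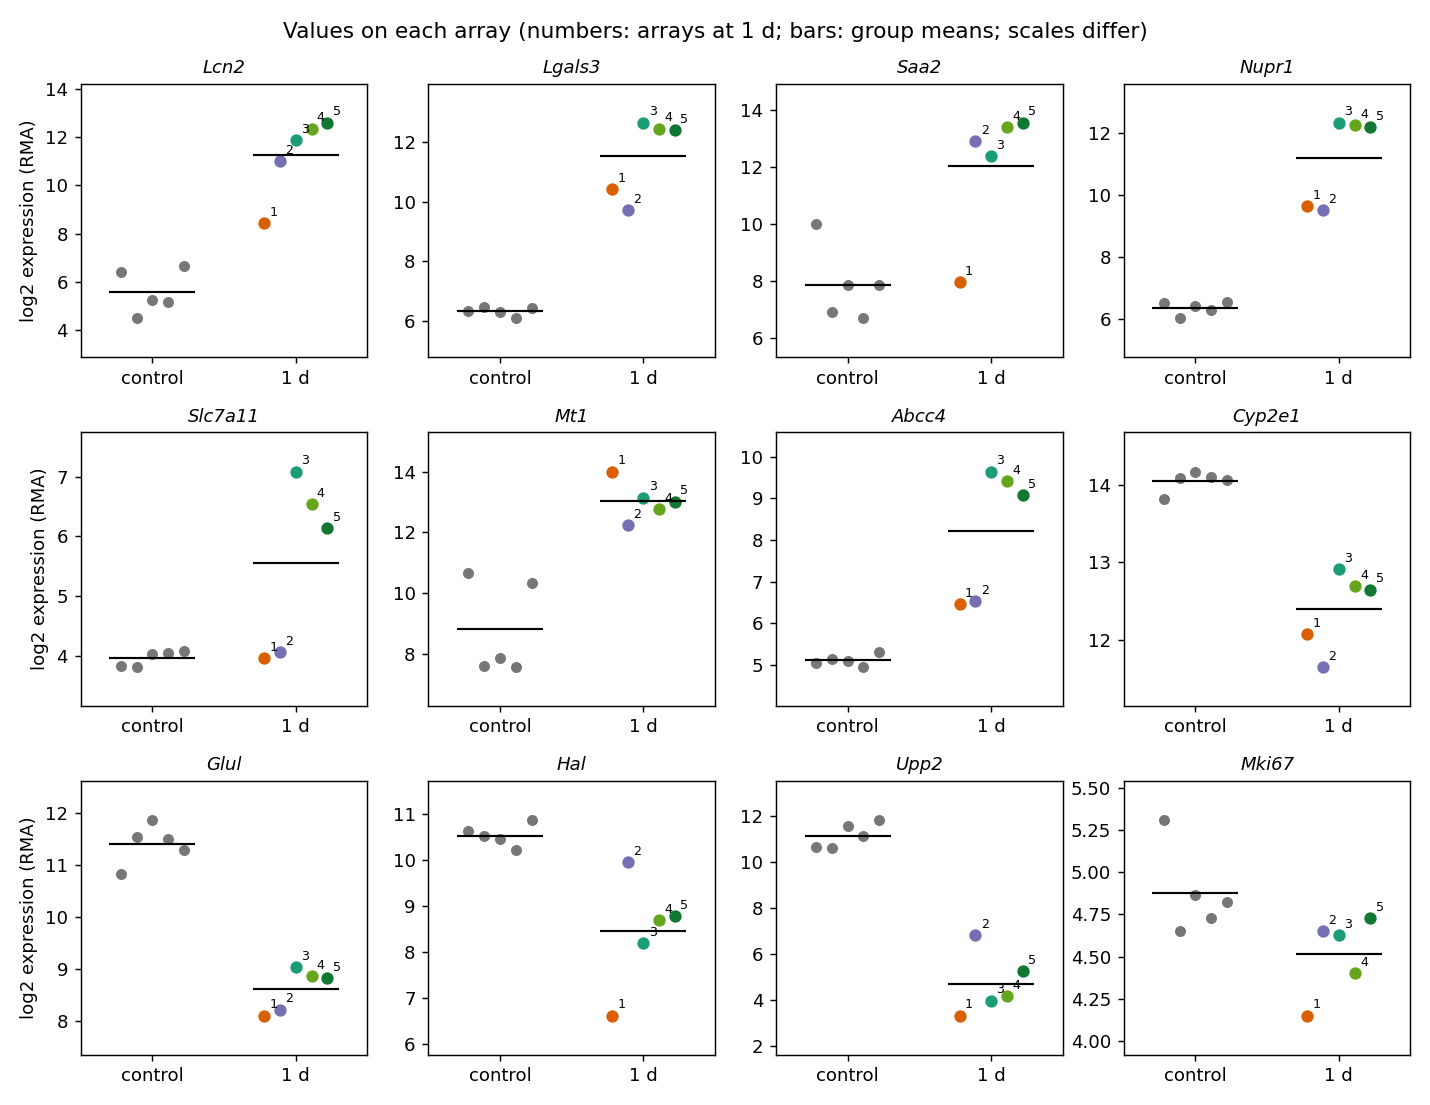
Log2 expression on each array for 12 named genes. Grey points are the 5 controls, coloured points the 5 arrays at 1 d with their array number, and bars are group means. Arrays 1 and 2 lie apart from arrays 3 to 5 in several genes, as for Lcn2 at 8.43 on array 1 against 11.01 to 12.59 on the other arrays.

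Targets of ATF4 and CHOP, the transcription factors that cells use when protein folding or amino acid supply fails, were raised broadly. Of 21 tested genes of this group 18 were called higher and 1 lower, with a median log2 difference of 1.08 against -0.04 over all genes. Nupr1, a small stress-induced regulator of transcription, read 6.51, 6.03, 6.41, 6.30 and 6.53 in controls and 9.66, 9.51, 12.35, 12.28 and 12.20 at 1 d. It rose 28.7-fold (4.84 ± 0.35, and 6.65 on its other probe set). Psat1, an enzyme of serine synthesis, read 4.04, 3.79, 4.18, 3.91 and 3.60 in controls and 8.57, 7.56, 9.30, 8.86 and 8.64 at 1 d, a rise of 25.7-fold (4.69 ± 0.28). Both were apart from controls on every 1 d array.

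Ddit3, which encodes CHOP itself, rose 7.76-fold (2.96 ± 0.22), from 6.77 to 7.15 in controls to 9.01, 9.05, 10.44, 10.72 and 10.07. Slc3a2, the heavy chain of amino acid transporters, rose 6.17-fold (2.63 ± 0.25) and Trib3, a pseudokinase that restrains ATF4, 5.59-fold (2.48 ± 0.35). Slc7a11, the cystine importer that supplies glutathione synthesis, split the 1 d arrays. It read 3.95 and 4.06 on arrays 1 and 2, beside controls at 3.81 to 4.08, and 7.09, 6.54 and 6.14 on arrays 3 to 5. Its mean rise was 3.03-fold (1.60 ± 0.32), and 3 of 5 arrays lay beyond the controls. The exception in the group was Shmt2, a mitochondrial enzyme of serine breakdown, at -0.90, named here after its value was seen.

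The promoters of this group were searched for the amino acid response element that ATF4 binds with CEBP partners. The motif searched was TGATGNAA on both strands of the 300 bases around each RefSeq start site, most of them upstream (assembly GRCm38.p6). Of 20 members with a promoter sequence 7 held it, against 2.9% of the 10637 tested genes with one, and 6 of the 7 were called higher. Of the 20 members 17 were called higher, so most of those that rose held no match. The match is a description of these letters and no sign of binding. Of the members that held it, 4 are printed because they rose and are classical stress genes, with the motif in capitals.

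Slc7a11, chr3:50443564-50443863, minus strand: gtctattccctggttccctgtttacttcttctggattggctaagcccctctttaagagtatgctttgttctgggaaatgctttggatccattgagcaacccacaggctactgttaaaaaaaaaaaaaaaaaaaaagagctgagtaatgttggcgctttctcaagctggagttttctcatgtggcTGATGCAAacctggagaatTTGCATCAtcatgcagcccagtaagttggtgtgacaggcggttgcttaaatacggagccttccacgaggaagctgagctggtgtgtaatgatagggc
Nupr1, chr7:126625421-126625720, minus strand: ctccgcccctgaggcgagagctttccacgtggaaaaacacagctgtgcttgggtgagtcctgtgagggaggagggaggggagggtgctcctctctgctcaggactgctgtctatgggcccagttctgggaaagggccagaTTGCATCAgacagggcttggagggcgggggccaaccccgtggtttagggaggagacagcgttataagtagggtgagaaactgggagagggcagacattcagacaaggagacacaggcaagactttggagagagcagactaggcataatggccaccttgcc
Trib3, chr2:152344011-152344310, minus strand: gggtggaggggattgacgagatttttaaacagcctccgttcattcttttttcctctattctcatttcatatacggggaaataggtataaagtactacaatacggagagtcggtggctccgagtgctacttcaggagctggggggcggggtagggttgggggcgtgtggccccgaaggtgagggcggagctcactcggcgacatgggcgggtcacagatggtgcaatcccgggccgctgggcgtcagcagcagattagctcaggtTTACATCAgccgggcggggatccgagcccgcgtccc
Chac1, chr2:119350992-119351291, plus strand: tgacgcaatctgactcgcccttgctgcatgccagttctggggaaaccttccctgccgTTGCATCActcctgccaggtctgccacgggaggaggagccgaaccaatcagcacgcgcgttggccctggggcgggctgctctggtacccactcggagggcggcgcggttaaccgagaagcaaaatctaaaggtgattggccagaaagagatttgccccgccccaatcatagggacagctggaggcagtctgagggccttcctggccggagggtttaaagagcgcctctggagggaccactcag

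Slc7a11 was the only one of these 4 with 2 matches, and its values on arrays 1 and 2 lay at the level of controls. Chac1, a glutathione-degrading enzyme, had a log2 difference of 1.88. Psat1 and Ddit3, which rose further, held no match in their windows.

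Chaperones rose in both the endoplasmic reticulum and the cytosol. In the endoplasmic reticulum 17 of 20 were called higher and 0 lower (median 1.01). Sdf2l1 rose 3.53-fold (1.82 ± 0.19), Creld2 3.53-fold (1.82 ± 0.33), Dnajb9, a cofactor of BiP, 3.44-fold (1.78 ± 0.26) and Hspa5, BiP itself, 3.04-fold (1.60 ± 0.22). Hspa5 read 13.62, 13.72, 13.66, 13.55 and 13.28 at 1 d, all above the controls at 11.72 to 12.19. Creld2 was highest on arrays 1 and 2, at 10.28 and 10.90, against 9.44 to 9.60 on the others.

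In the cytosol 12 of 15 heat shock chaperones were called higher and 0 lower (median 0.96). Hspb1, a small heat shock protein that protects actin, read 8.39, 8.29, 8.37, 7.81 and 7.78 in controls and 10.35, 9.25, 13.31, 13.20 and 12.86 at 1 d. It rose 12.7-fold (3.66 ± 0.43). Hsph1 rose 5.68-fold (2.51 ± 0.40) and Hsp90aa1 4.49-fold (2.17 ± 0.26), the latter with probe sets from -0.04 to 2.80. Hspa1b, an inducible HSP70, rose 3.69-fold (1.88 ± 0.55) and was highest on array 1 at 11.85. Its sister Hspa1a was not called (0.91 ± 0.48, adjusted p = 0.111 with limma), reading 7.0 on array 1 and 4.11 to 4.93 on the others.

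Targets of Nrf2, the regulator of the response to oxidants, moved in both directions, with 9 of 21 called higher and 7 lower (median 0.27). Srxn1, which repairs oxidised peroxiredoxins, read 6.88 to 7.07 in controls and 11.66, 9.28, 10.94, 10.86 and 10.30 at 1 d, a rise of 12.6-fold (3.66 ± 0.34). Pgd, an enzyme that supplies NADPH, rose 3.66-fold (1.87 ± 0.19). Gsta2, a glutathione transferase abundant in hepatocytes, fell 2.54-fold (-1.34 ± 0.29). Hmox1, heme oxygenase, was not called (0.59 ± 0.27, adjusted p = 0.0614 with limma), reading 7.30, 7.13, 6.95, 7.95 and 7.66 against 6.64 to 6.98 in controls. Without array 3 it was called (0.71, adjusted p = 0.0374), and without array 2 its adjusted p was 0.05. Further glutathione transferases, Gstm1 (-0.53) and Gstm3 (-1.03), were called lower too. The group's mean shift was 0.926 on array 1 and 0.0168 to 0.243 on the other arrays.

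The metallothioneins Mt1 and Mt2, small proteins that bind zinc and copper, led the group of metal and iron genes, of which 6 of 14 were called higher and 2 lower. Mt1 read 10.67, 7.59, 7.87, 7.56 and 10.33 in controls and 14.00, 12.24, 13.14, 12.77 and 13.01 at 1 d. It rose 18.8-fold (4.23 ± 0.68), which is uncertain, since probe sets of this kind can also bind similar sequences (its other probe set gave 1.59). Among the other large changes the same holds for Nupr1, Trib3, Upp2, Saa2, Nrep, Srxn1, Tubb2a and S100a8. Mt2 read 9.69, 7.58, 7.54, 7.40 and 8.86 in controls and 12.10, 11.43, 12.59, 12.13 and 12.31 at 1 d, a rise of 14.9-fold (3.90 ± 0.57). Controls 1 and 5 were the highest controls for both genes, and all 1 d arrays lay above them. Tfrc, the transferrin receptor, rose 2.60-fold (1.38 ± 0.30, probe sets from -0.08), and Fth1, the ferritin heavy chain, 1.76-fold (0.82 ± 0.06).

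The metal response element, which the zinc-sensing factor MTF1 binds, was searched with the string TGCNCNC on both strands. Its N allows any base, so a match need not be an element that MTF1 binds. The string is short, and 63.1% of the tested genes with a promoter sequence held it, as did 6 of the 10 members with one. Windows with 3 or more matches made up 7.10% of all 32851, and Mt1 had 3 and Mt2 had 6. Tfrc and Slc30a10 also had 3 in a window, and of these Tfrc was called higher and Slc30a10 was not. Mt1 and Mt2 are printed, with the matches in capitals, because they are the known carriers of clustered elements.

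Mt1, chr8:94178839-94179138, plus strand: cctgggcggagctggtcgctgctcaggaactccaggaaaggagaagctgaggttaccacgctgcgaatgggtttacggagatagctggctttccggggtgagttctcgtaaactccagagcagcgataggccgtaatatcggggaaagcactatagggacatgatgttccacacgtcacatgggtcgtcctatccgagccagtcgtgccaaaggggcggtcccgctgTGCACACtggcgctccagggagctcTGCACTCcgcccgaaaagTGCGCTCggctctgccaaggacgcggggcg
Mt2, chr8:94172368-94172667, plus strand: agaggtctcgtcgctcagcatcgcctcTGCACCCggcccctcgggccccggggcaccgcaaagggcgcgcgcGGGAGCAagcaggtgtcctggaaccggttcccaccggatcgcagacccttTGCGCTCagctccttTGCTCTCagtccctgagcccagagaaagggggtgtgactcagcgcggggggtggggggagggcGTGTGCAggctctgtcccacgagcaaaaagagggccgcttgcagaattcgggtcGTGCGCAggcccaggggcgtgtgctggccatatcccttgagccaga

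Immediate early genes, which signalling switches on within minutes, were still raised at 1 d, with 15 of 20 called higher and 1 lower (median 1.10). Ier3, a survival factor, read 4.42 to 5.00 in controls and 7.32, 5.72, 8.56, 8.57 and 8.76 at 1 d, a rise of 8.89-fold (3.15 ± 0.36). Klf6 rose 5.68-fold (2.50 ± 0.37), Atf3 5.65-fold (2.50 ± 0.32) and Myc, a driver of growth, 4.31-fold (2.11 ± 0.32). On array 2 all 4 were at their lowest 1 d value, and the group's mean shift was 0.359 there against 1.12 to 1.42 on the others. The exception was Zfp36, an RNA-destabilising protein, at -0.57, named after its value was seen. The lower count was 0 when control 2, control 5, array 2 or array 4 was left out.

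Among 18 targets of p53, 8 were called higher and 2 lower. Trp53inp1 rose 3.45-fold (1.79 ± 0.28), Cdkn1a, the cell cycle inhibitor p21, 3.34-fold (1.74 ± 0.30), Btg2 1.91-fold (0.93 ± 0.27) and Zmat3 1.65-fold (0.72 ± 0.13). Cdkn1a read 8.86, 8.52, 8.00, 7.66 and 7.79 at 1 d against 6.34 to 6.47 in controls. Of 20 genes of cell death and survival 7 were higher (35.0%) and 1 lower, or 4 and 2 without control 4, and 2 were lower without control 5. Tnfrsf12a, the receptor of TWEAK, rose 6.66-fold (2.73 ± 0.27), from 7.04 to 7.35 in controls to 11.33, 8.51, 9.88, 9.97 and 9.88. Mcl1, which blocks apoptosis, rose 2.02-fold (1.01 ± 0.22) and Mlkl, the effector of necroptosis, 1.61-fold (0.69 ± 0.14). Bmf, a cell death activator, fell 1.73-fold (-0.79 ± 0.24, with probe sets up to 0.10).

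Acute phase proteins, which hepatocytes secrete on instruction from IL-6 and IL-1, were higher in 14 of 22 tested genes and lower in 1 (median 0.45). Saa1 read 12.34, 9.29, 10.55, 8.83 and 10.14 in controls and 10.66, 14.05, 13.86, 14.24 and 14.20 at 1 d, a rise of 9.0-fold (3.17 ± 0.70). Saa2 read 9.99, 6.90, 7.83, 6.69 and 7.84 in controls and 7.95, 12.90, 12.39, 13.40 and 13.56 at 1 d, a rise of 18.2-fold (4.19 ± 0.88). Orm2, a plasma carrier, read 7.08 on array 1 and 9.67 to 10.56 on the others, and rose 6.06-fold (2.60 ± 0.52). Array 1 lay within the controls for all 3 genes, while arrays 2 to 5 lay beyond them, and control 1 was the highest control for each. Saa1 and Saa2 are close copies, and probes may read both.

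The mean shift of the acute phase group was -0.14 on array 1 and 1.15, 1.27, 1.53 and 1.66 on arrays 2 to 5. Without arrays 1 and 2 the group had 17 higher and 0 lower. The gene lower with all arrays was Saa4, the constitutive form, at -1.24, named after its value was seen. Fibrinogen chains were not called, at 0.04 (Fga), 0.00 (Fgb) and -0.02 (Fgg). For each chain array 1 was far the lowest 1 d array, at 12.48 (Fga), 12.76 (Fgb) and 13.04 (Fgg). The highest values on the other 1 d arrays were 13.19, 13.92 and 14.03. These mean differences therefore average a low array 1 with higher arrays. In the IL-6 pathway 7 of 12 genes were higher and 1 lower. Socs3, the feedback inhibitor of STAT3, rose 3.08-fold (1.62 ± 0.44), Osmr, the oncostatin M receptor, 2.17-fold (1.12 ± 0.19), and Il6st, the shared receptor chain, 1.69-fold (0.75 ± 0.10). With the Gapdh covariate 4 of the 12 were higher, and Socs3 was no longer called (1.02, adjusted p = 0.0842 with limma). Lifr, the receptor of LIF, fell 2.78-fold (-1.48 ± 0.24, with probe sets up to 0.00).

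The machinery that makes and removes proteins was raised with small errors. All 14 tested ribosomal protein genes were called higher (median 0.70), and in all 14 the groups did not overlap. Rplp2 rose 1.89-fold (0.92 ± 0.07), Rplp0 1.85-fold (0.89 ± 0.06), Rps3 1.80-fold (0.85 ± 0.07, with another probe set at -0.26) and Rps19 1.78-fold (0.83 ± 0.08). Rplp0 read 11.69 to 11.83 in controls and 12.65, 12.45, 12.67, 12.66 and 12.69 at 1 d. Of 26 genes of ribosome biogenesis 23 were higher and 0 lower (median 0.80). Ncl, nucleolin, rose 3.36-fold (1.75 ± 0.14), Npm1, nucleophosmin, 3.27-fold (1.71 ± 0.13), Nop58 3.27-fold (1.71 ± 0.25) and Nhp2 3.00-fold (1.59 ± 0.11). Another probe set of Ncl was at -0.16.

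Of 32 proteasome subunits 30 were higher and 1 lower (median 0.45). Psmc5 rose 2.25-fold (1.17 ± 0.09), Psmd8 2.21-fold (1.14 ± 0.08), Psmd14 1.92-fold (0.94 ± 0.10) and Psmb7 1.84-fold (0.88 ± 0.13). The subunit that fell was Psme1, an interferon-induced activator, at -0.26, named after its value was seen. Subunits of the respiratory chain went the other way, with 26 of 30 lower and 1 higher (median -0.44). Sdha fell 2.04-fold (-1.03 ± 0.09), Sdhb 1.73-fold (-0.79 ± 0.10), Atp5a1 1.67-fold (-0.74 ± 0.08) and Ndufs1 1.60-fold (-0.68 ± 0.10). The exception was cytochrome c itself, Cycs, at 0.41.

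Genes of the cytoskeleton and keratins rose in 23 of 24 tested members (median 1.52), and the groups did not overlap for 23. Tubb2a, a tubulin, rose 7.77-fold (2.96 ± 0.52), Tubb6 7.37-fold (2.88 ± 0.29, with another probe set at -0.19) and Krt8, the keratin of hepatocytes, 4.37-fold (2.13 ± 0.24). Actb, often used as a constant reference, rose 1.59-fold (0.67 ± 0.12).

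**Figure D3:**
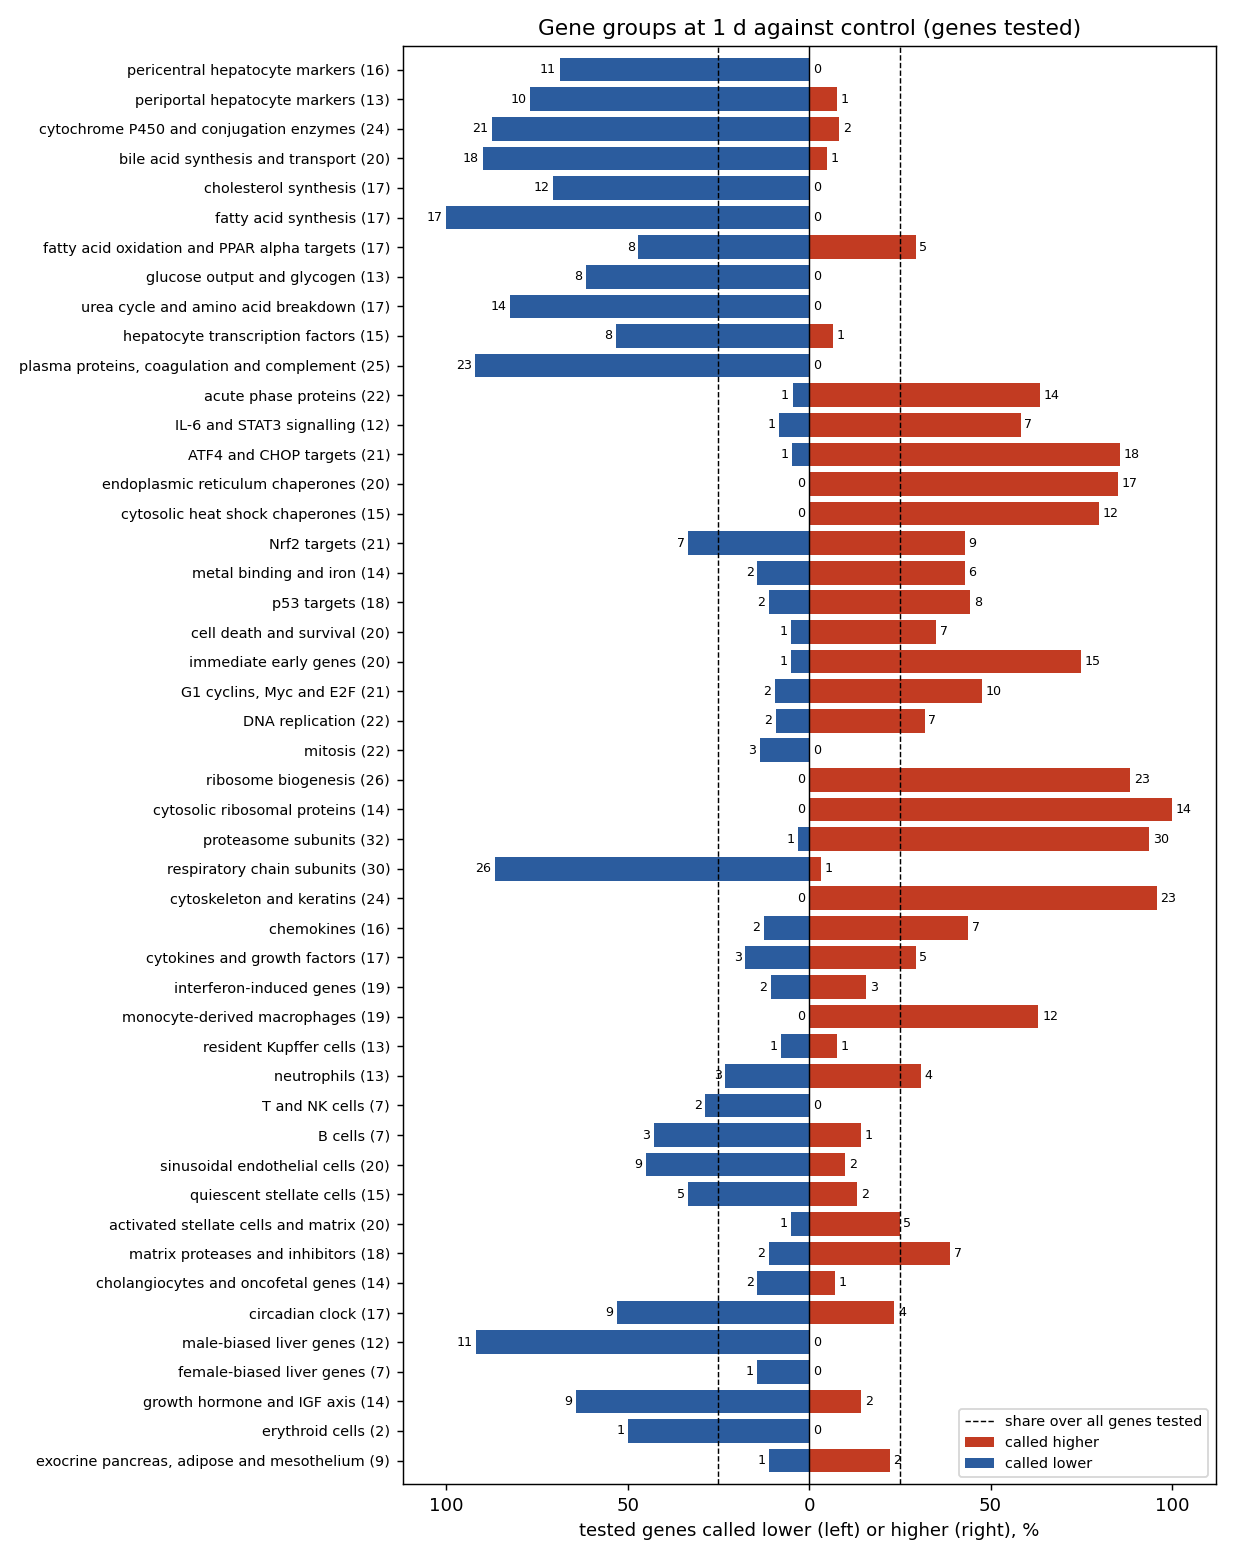
Number of tested genes called higher (right of 0) and lower (left of 0) at 1 d against control for 48 gene groups, as a percentage of the genes tested in each, with counts printed beside the bars. Dashed lines mark the 25.0% called higher and 25.1% called lower over all genes.

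Markers of both ends of the lobule were lower. Of 16 pericentral markers 11 were called lower and 0 higher (median -1.0). Cyp2e1, which activates CCl4, read 13.81, 14.09, 14.17, 14.09 and 14.06 in controls and 12.07, 11.65, 12.91, 12.69 and 12.65 at 1 d, a fall of 3.14-fold (-1.65 ± 0.27). Glul, glutamine synthetase of the innermost pericentral cells, read 10.83, 11.55, 11.86, 11.50 and 11.29 in controls and 8.11, 8.22, 9.05, 8.87 and 8.83 at 1 d, a fall of 6.92-fold (-2.79 ± 0.18). Cyp1a2 fell 7.02-fold (-2.81 ± 0.27), Slc1a2, a glutamate transporter, 11-fold (-3.46 ± 0.29, with another probe set at -0.08) and Rgn, regucalcin, 4.59-fold (-2.20 ± 0.27). Axin2, a target of Wnt signalling, was not called (-0.13 ± 0.11, adjusted p = 0.31 with limma).

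Of 13 periportal markers 10 were called lower and 1 higher (median -0.98). The higher count fell to 0 when control 1, 2, 3 or 4 or array 2, 3, 4 or 5 at 1 d was left out. Cyp2f2 fell 3.45-fold (-1.79 ± 0.16), from 12.80 to 13.03 in controls to 11.21, 11.71, 10.91, 10.73 and 11.09. Hal, histidine ammonia-lyase, read 10.62, 10.51, 10.45, 10.22 and 10.86 in controls and 6.62, 9.96, 8.20, 8.70 and 8.78 at 1 d, a fall of 4.24-fold (-2.08 ± 0.29). Hsd17b6 fell 3.52-fold (-1.82 ± 0.34, another probe set at -0.14). Aldh1b1, a mitochondrial aldehyde dehydrogenase, read 8.28 on array 2, within the controls at 7.21 to 8.64, and 5.02 to 5.92 on the other arrays. It fell 3.18-fold (-1.67 ± 0.34).

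The zones were also read array by array. The periportal group's mean shift was -1.69 on array 1, -0.186 on array 2 and -1.19 to -0.779 on arrays 3 to 5. The pericentral group's mean shift was -1.90 on array 1, -1.50 on array 2 and -1.09 to -0.94 on arrays 3 to 5. On array 2 the periportal mean was close to control, and the pericentral mean was lower than on arrays 3 to 5. Whether the difference between zones on this array exceeds the spread was not tested, since it is a single array. Pck1, the entry enzyme of glucose output and a periportal marker, was not called (-1.10 ± 0.49, adjusted p = 0.061 with limma). It read 7.63 on array 1 and 11.56 to 12.08 on the others, against 11.80 to 12.36 in controls. It was called without array 2, 4 or 5 (adjusted p from 0.0263 to 0.0376).

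**Figure D4:**
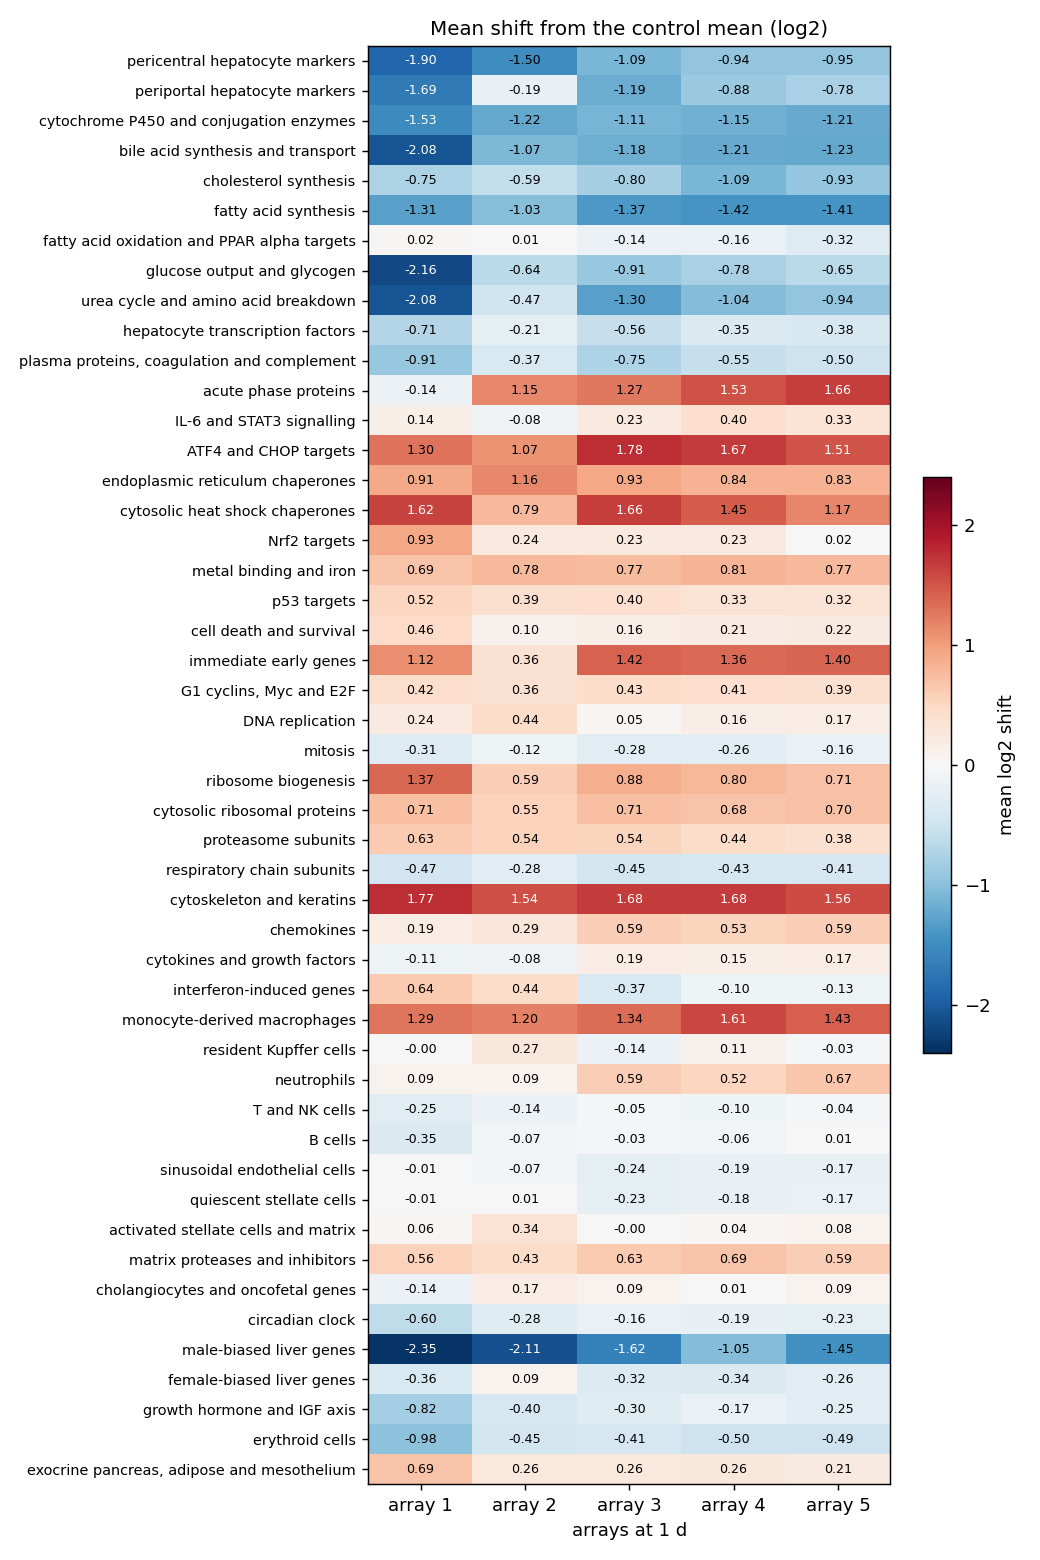
Mean shift of each gene group (rows) on each of the 5 arrays at 1 d (columns), as the mean over tested genes of the array's log2 value minus the control mean. Colours run from blue (lower) to red (higher) and each cell prints its value. The acute phase row is -0.14 on array 1 and 1.15 to 1.66 on the others, and the periportal row is -0.186 on array 2 and -1.69 to -0.779 on the others.

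Drug and bile acid metabolism fell across its enzymes and transporters. Of 24 cytochromes P450 and conjugating enzymes 21 were lower and 2 higher (median -1.20). Cyp2c37 fell 11.4-fold (-3.51 ± 0.51), Cyp2c50 7.43-fold (-2.89 ± 0.36) and Cyp2c54 6.19-fold (-2.63 ± 0.41), though these neighbouring genes are similar and probes may read several. Of 20 bile acid genes 18 were lower and 1 higher (median -1.45). Cyp7a1, which sets the rate of bile acid synthesis, read 9.29, 9.21, 10.77, 10.49 and 9.23 in controls and 5.45, 8.07, 5.99, 5.70 and 5.99 at 1 d, a fall of 11.8-fold (-3.56 ± 0.51). Cyp8b1, which makes cholic acid, fell 8.32-fold (-3.06 ± 0.47) and Akr1d1, a bile acid reductase, 8.07-fold (-3.01 ± 0.40).

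The bile acid gene that rose was Abcc4, an exporter in the basolateral membrane. It read 5.06, 5.15, 5.09, 4.96 and 5.31 in controls and 6.46, 6.54, 9.64, 9.42 and 9.08 at 1 d, a rise of 8.66-fold (3.11 ± 0.35). Every 1 d array was above the controls, and arrays 1 and 2 were far below the other three. Importers of bile acids, Slc10a1 at -1.87 and Slco1b2 at -1.85, and the canalicular exporter Abcb11 at -2.01 were called lower. Relatives of Abcc4 in the group did not share its rise, as Abcc3 was called lower (-1.04) and Abcc2 was not called (0.15). All of these but Abcc4 are named after their values were seen.

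Lipid synthesis genes were mostly lower. All 17 genes of fatty acid synthesis were called lower (median -1.14). Scd1, the desaturase, fell 3.18-fold (-1.67 ± 0.13), Fasn, fatty acid synthase, 2.84-fold (-1.51 ± 0.26) and Fads1 2.70-fold (-1.43 ± 0.12). Scd1 read 12.40, 12.50, 12.61, 12.09 and 12.01 at 1 d against 13.37 to 14.30 in controls. Of 17 genes of cholesterol synthesis 12 were lower and 0 higher (median -1.05). Sc5d fell 2.62-fold (-1.39 ± 0.16), Hmgcs1 2.53-fold (-1.34 ± 0.29), Nsdhl 2.41-fold (-1.27 ± 0.20) and Idi1 2.4-fold (-1.26 ± 0.27).

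Of 17 fat oxidation genes 5 were called higher and 8 lower. Acaa1b, a peroxisomal thiolase, fell 3.99-fold (-1.99 ± 0.23) and Ppara, its regulator, 2.67-fold (-1.42 ± 0.24). Pdk4, which spares glucose, rose 2.97-fold (1.57 ± 0.40), although array 2 at 5.6 lay among the controls at 5.13 to 6.48. Cyp4a14, an omega-hydroxylase that PPAR alpha switches on, rose 3.60-fold (1.85 ± 0.70) from controls spread over 7.47 to 11. Its call was lost without control 3 (1.38, adjusted p = 0.11 with limma), without control 1 (1.65, 0.0655), without arrays 1 and 2 together (1.81, 0.0682) and with the Gapdh covariate (1.18, 0.238). The group then had 3, 3, 2 and 3 genes higher, and 3 without array 1.

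Genes of glucose output read lowest on array 1. Of 13 genes of glucose output and glycogen 8 were lower and 0 higher (median -1.10), with a mean shift of -2.16 on array 1 and -0.912 to -0.64 on the others. Gys2, liver glycogen synthase, fell 4.90-fold (-2.29 ± 0.29), Slc2a2, the glucose transporter GLUT2, 4.23-fold (-2.08 ± 0.27) and Pygl, glycogen phosphorylase, 3.90-fold (-1.97 ± 0.20). G6pc, which releases glucose, read 7.64, 9.89, 9.63, 10.71 and 10.72 against 10.49 to 12.33 in controls. Its fall of 2.87-fold (-1.52 ± 0.49) was not called without array 1 (-1.0, adjusted p = 0.0745 with limma), without arrays 1 and 2 (-0.88, 0.153) or with the Gapdh covariate (-1.27, 0.0691). Of 17 genes of the urea cycle and amino acid breakdown 14 were lower and 0 higher (median -1.44). Otc fell 3.90-fold (-1.96 ± 0.17), Agxt 3.49-fold (-1.80 ± 0.23) and Fah 3.29-fold (-1.72 ± 0.18).

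Secreted proteins other than the acute phase were mostly lower. Of 25 plasma, coagulation and complement genes 23 were lower and 0 higher (median -0.56). F11 fell 2.90-fold (-1.53 ± 0.18), C6 2.34-fold (-1.22 ± 0.16), F7 2.19-fold (-1.13 ± 0.11) and Proc, protein C, 2.11-fold (-1.08 ± 0.09). Albumin was not called (0.02 ± 0.04, adjusted p = 0.65 with limma). Its level is among the highest printed here, and whether the arrays can show a change at such a level was not tested. Of 15 hepatocyte transcription factors 8 were lower and 1 higher. Nr1h4, the bile acid receptor FXR, fell 2.26-fold (-1.18 ± 0.16), Cebpa 2.20-fold (-1.14 ± 0.16), Nr1i2, the receptor PXR, 1.92-fold (-0.94 ± 0.14) and Hnf4a 1.52-fold (-0.61 ± 0.12). Hnf4a read 10.33, 11.55, 11.01, 11.05 and 11.16 against 11.42 to 11.76 in controls, with array 2 inside the control range.

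Male-biased liver genes, which growth hormone pulses maintain, were lower. Of these 12 male-biased liver genes 11 were lower and 0 higher (median -1.63). Besides Hsd3b5, Nudt7 fell 6.14-fold (-2.62 ± 0.36), Elovl3 5.37-fold (-2.43 ± 0.67) and Ugt2b38 5.17-fold (-2.37 ± 0.43). Elovl3 ranged from 8.04 to 11.28 in controls and its groups overlapped, and without arrays 1 and 2 its adjusted p was 0.087 with limma. Of 7 female-biased genes 1 was lower, Cyp3a44 (1.66-fold, -0.73 ± 0.12). In the growth hormone and IGF axis 9 of 14 genes were lower and 2 higher (median -0.38). Ghr, the growth hormone receptor, fell 3.66-fold (-1.87 ± 0.18), from 11.84 to 12.18 in controls to 9.06, 10.87, 10.10, 10.53 and 10.44. Igfbp1, an insulin-like growth factor carrier, rose 7.30-fold (2.87 ± 0.50), from controls between 7.24 and 11.54 to 12.21, 11.79, 13.06, 13.04 and 13.13. Igfbp2 fell 2.29-fold (-1.20 ± 0.16). Egfr fell 2.95-fold (-1.56 ± 0.39, with probe sets up to 0.09), and without arrays 1 and 2 its adjusted p was 0.052 with limma.

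Circadian genes differed as well, and the controls were not alike in them. Of 17 clock genes 9 were lower and 4 higher. Dbp, an output gene with a strong daily rhythm, read 8.34, 9.08, 10.59, 10.54 and 10.62 in controls and 5.64, 7.58, 6.41, 6.74 and 6.87 at 1 d, a fall of 9.11-fold (-3.19 ± 0.93). Controls 1 and 2 were lower than controls 3 to 5 for Dbp, and likewise for Usp2, which read 7.0, 7.28, 8.59, 8.75 and 8.66 in controls and 6.50 to 6.88 at 1 d. Usp2 fell 2.54-fold (-1.34 ± 0.31). Cry1, a repressor of the clock, rose 4.38-fold (2.13 ± 0.32) and Nfil3, a repressor of Dbp's targets, 2.56-fold (1.36 ± 0.39). The hour of sampling cannot be told apart from the treatment here.

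Cell cycle genes were read by phase. Of 21 genes of G1 control 10 were higher and 2 lower, and Ccne2, cyclin E2, rose 2.4-fold (1.27 ± 0.21), with array 1 at 3.65 inside the controls at 3.34 to 3.89. Cdc25a, a phosphatase that opens S phase, rose 1.73-fold (0.79 ± 0.12), with probe sets from -0.05 to 1.12. Ccnd1, cyclin D1, was not called (0.27 ± 0.24, adjusted p = 0.35 with limma). It read 9.21 on array 2 and 8.00 to 8.15 on the others, against 7.36 to 8.53 in controls.

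Of 22 DNA replication genes 7 were higher (31.8%, near the 25.0% of all genes) and 2 lower (median 0.24). Mcm6, of the replicative helicase, read 6.82, 5.97, 5.65, 5.95 and 6.73 in controls and 7.58, 7.79, 8.47, 8.22 and 8.23 at 1 d, a rise of 3.56-fold (1.83 ± 0.19). Cdt1, which loads that helicase, rose 2.66-fold (1.41 ± 0.19). Mcm2 of the same helicase was not called (0.36 ± 0.18, adjusted p = 0.099 with limma), at 6.63 and 6.03 on arrays 1 and 2 and 5.40 to 5.64 on the others. It was called without array 5 (0.47, adjusted p = 0.0387), and without array 3 its adjusted p was 0.05. Tk1, thymidine kinase, fell 2.25-fold (-1.17 ± 0.16). Mcm10 fell 3.33-fold (-1.74 ± 0.25) on the probe set chosen, but its probe sets ranged up to 0.02.

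Of 22 mitosis genes 0 were higher and 3 lower (median -0.22). The lower count was 7 without array 2 and 1 without array 4. Cdc20 fell 1.27-fold (-0.35 ± 0.13), Cenpf 1.2-fold (-0.27 ± 0.08) and Foxm1 1.13-fold (-0.18 ± 0.06). Foxm1 lost its call without array 4 (adjusted p = 0.0541), and Cdc20 without control 5 or arrays 1, 3 or 4 (adjusted p up to 0.0679). Mki67, the proliferation antigen Ki-67, read 5.31, 4.65, 4.87, 4.73 and 4.82 in controls and 4.15, 4.65, 4.63, 4.40 and 4.73 at 1 d (-0.36 ± 0.19, adjusted p = 0.12 with limma). The next step was large. From 1 d to 2 d 19 of the 22 mitosis genes were called higher and 0 lower (median 2.53), as were 19 of the 22 replication genes (median 1.31). Over all genes 2301 (17.4%) were called higher and 1982 (15.0%) lower. The low-value filter favours such rises, since 22 of 27 mitosis genes on the array passed it. Mki67 read below its level of 5.55823 on every control and 1 d array and passed through other groups.

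In that step Birc5, survivin, rose 30.0-fold (4.91 ± 0.27), from 4.24 to 4.59 at 1 d to 10.27, 7.78, 10.19, 9.24 and 8.87 at 2 d. Mki67 rose 23.7-fold (4.57 ± 0.19), to 9.58, 8.02, 9.53, 9.34 and 8.94. Rrm2, a subunit of ribonucleotide reductase, rose 17.2-fold (4.11 ± 0.22) and Ube2c, which drives exit from mitosis, 16.2-fold (4.02 ± 0.24). The gene listed as D17H6S56E-5 rose 16.8-fold (4.07 ± 0.25). Array 2 at 2 d was the lowest for Birc5, Mki67 and Ube2c. The stress genes dropped in the same step, with 18 of 21 ATF4 and CHOP targets called lower (median -0.73). Nupr1 fell 14.4-fold (-3.85 ± 0.35), Trib3 8.24-fold (-3.04 ± 0.35) and Ddit3 5.98-fold (-2.58 ± 0.22). Outside that group, Ifrd1, a transcriptional co-regulator, fell 5.54-fold (-2.47 ± 0.35) and Pwwp3b 11-fold (-3.46 ± 0.45).

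Genes of monocyte-derived macrophages were raised, with 12 of 19 called higher and 0 lower (median 0.94). The group's mean log2 level was 6.54 to 6.71 in controls and 7.82 to 8.23 at 1 d. Besides Lgals3 and Chil3, Cd14, a receptor for bacterial lipid, rose 8.29-fold (3.05 ± 0.33), from 6.28 to 6.56 in controls to 9.69, 7.87, 9.92, 10.04 and 10.10. Mmp12, macrophage elastase, read 7.27, 7.64, 7.92, 8.67 and 7.58 at 1 d against 4.37 to 4.74 in controls, a rise of 9.44-fold (3.24 ± 0.41). Other markers of these cells were not called, among them Ccr2 at -0.09 and Trem2 at 0.07, named after their values were seen. Whether the rise came from more cells or from other cells making the transcripts was not tested.

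Resident Kupffer cell markers were called higher in 1 of 13 and lower in 1. Clec4f, their most specific marker, fell 1.56-fold (-0.64 ± 0.14), from 8.69 to 8.98 in controls to 8.32, 8.63, 7.67, 8.17 and 7.87. Marco, a scavenger receptor, rose 5.19-fold (2.38 ± 0.39). Adgre1, which encodes F4/80, was not called (-0.12 ± 0.14, adjusted p = 0.47 with limma). Of 13 neutrophil markers 4 were higher (30.8%) and 3 lower (23.1%), near the shares of all genes. S100a8 rose 9.51-fold (3.25 ± 0.49), from 4.63 to 5.41 in controls to 7.08, 6.46, 9.09, 8.99 and 9.45, S100a9 4.29-fold (2.10 ± 0.34) and Fpr2 1.66-fold (0.73 ± 0.13). Arrays 1 and 2 were the lowest 1 d arrays for all 3. Granule genes of neutrophil precursors fell slightly, Ngp by 0.39 on the log2 scale (1.31-fold) and Mpo to -0.33, the latter named after its value was seen.

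Few lymphocyte markers were tested, so their shares are coarse. For T and NK cells 0.0% were called higher and 28.6% lower, and for B cells 14.3% and 42.9%. Over all genes the shares were 25.0% and 25.1%. Of 7 T and NK cell markers 2 were lower, Prf1 at -0.27 and Ncr1 at -0.21. Both read near or below the filter value of 5.55823, Prf1 at 5.40 to 5.69 in controls and Ncr1 at 5.20 to 5.36 at 8 h. Of 7 B cell markers 1 was higher and 3 lower, Bank1 at -0.34, Cd22 at -0.27 and Ighm at -0.23. Ncr1 lost its call without any of 6 arrays (controls 2 to 4 and arrays 1, 2 and 4 at 1 d), Ighm without control 1, control 3 or array 1, and Bank1 without array 3 (adjusted p up to 0.168, 0.0657 and 0.0535). Blnk, an adaptor shared by B cells and macrophages, rose 1.59-fold (0.67 ± 0.18). Sinusoidal endothelial markers were lower in 9 of 20 and higher in 2. Dnase1l3 fell 1.5-fold (-0.58 ± 0.07) and Stab2 1.48-fold (-0.57 ± 0.10), while Lyve1 rose 1.80-fold (0.85 ± 0.25) and Rspo3, an enhancer of Wnt signalling made by central vein endothelium, 1.70-fold (0.76 ± 0.12, another probe set at -0.17). Lyve1 lost its call without arrays 1 and 2 (0.63, adjusted p = 0.0616 with limma) and with the Gapdh covariate (0.57, 0.107).

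Stellate cells make scar matrix once activated. Of 20 activated stellate and matrix genes 5 were higher (25.0%, as over all genes) and 1 lower (median -0.02). Col1a1 was not called (-0.15 ± 0.12, adjusted p = 0.28 with limma). Timp1, an inhibitor of matrix proteases, rose 1.79-fold (0.84 ± 0.18), Col4a1, of basement membranes, 1.92-fold (0.94 ± 0.18), Acta2, smooth muscle actin, 1.48-fold (0.56 ± 0.19, other probe sets down to -0.13) and Tagln 1.43-fold (0.51 ± 0.15). From 1 d to 2 d 16 of the 20 were called higher and 0 lower (median 0.92). Quiescent stellate markers were lower in 5 of 15 and higher in 2, with Colec11 down 1.70-fold (-0.76 ± 0.15), Reln 1.42-fold (-0.50 ± 0.12) and Colec10 1.35-fold (-0.43 ± 0.12). Dcn, decorin, rose 1.40-fold (0.48 ± 0.14), and without arrays 1 and 2 its adjusted p was 0.17 with limma. Of 18 matrix proteases and inhibitors 7 were higher and 2 lower, with Adamts1 up 3.20-fold (1.68 ± 0.25) and Mmp14 2.20-fold (1.14 ± 0.13). Mmp13, a collagenase, rose 8.04-fold (3.01 ± 0.40), from 2.87 to 3.13 in controls to 5.63, 5.71, 6.10, 6.48 and 6.20.

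Of 16 chemokines 7 were called higher (43.8%) and 2 lower. Ccl6 rose 5.01-fold (2.33 ± 0.42), Cxcl10 3.41-fold (1.77 ± 0.27), Cxcl1, which attracts neutrophils, 2.50-fold (1.32 ± 0.38) and Cxcl2 2.47-fold (1.31 ± 0.37). With the Gapdh integrity value as a covariate 4 chemokines were higher, and Cxcl1 (1.05, adjusted p = 0.053) and Cxcl2 (0.91, adjusted p = 0.0731) were no longer called. Of 17 cytokines and growth factors 5 were higher (29.4%) and 3 lower (17.6%), near the 25.0% and 25.1% of all genes, with a median of 0.00. Ccn2, connective tissue growth factor, rose 4.27-fold (2.10 ± 0.25), Ccn1 1.93-fold (0.95 ± 0.28), and Il18 fell 2.4-fold (-1.26 ± 0.14). Among interferon-induced genes 3 of 19 were higher and 2 lower. Rsad2 rose 2.32-fold (1.22 ± 0.33) and Gbp2 1.70-fold (0.77 ± 0.21), while Psmb9 fell 1.83-fold (-0.87 ± 0.17) and Iigp1 1.65-fold (-0.72 ± 0.15). The mean shift of this group was 0.636 and 0.437 on arrays 1 and 2 and -0.371 to -0.096 on arrays 3 to 5. Without arrays 1 and 2 it had 2 higher and 8 lower, whereas 7 were higher without array 3 alone and 5 without array 4 or array 5.

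Genes of tissues beside the liver were checked as well. Of 9 genes listed for pancreas, fat and mesothelium 2 were higher and 1 lower. That list also held Krt8, described above as the keratin of hepatocytes, whose rise of 2.13 was its highest. The other gene called higher was Fabp4. Fabp4, a fatty acid carrier of fat cells and macrophages, rose 3.08-fold (1.62 ± 0.20, probe sets from -0.30) and Cela1 fell 2.78-fold (-1.48 ± 0.18). The pancreatic genes Cela3b, Prss2 and Ctrb1 were not called, at 0.00, -0.10 and 0.13. Cidec, a lipid droplet protein, read 7.80 on array 1 and 3.30 to 3.89 on the others, against 3.44 to 3.57 in controls (0.89 ± 0.41, adjusted p = 0.072 with limma). It was called without array 3, 4 or 5 (adjusted p from 0.023 to 0.0392). Alas2, the erythroid heme synthase, fell 2.07-fold (-1.05 ± 0.16). Among 14 cholangiocyte and oncofetal genes, Sox9 rose 2.23-fold (1.16 ± 0.24), Igf2bp3 stood at -0.30 and Epcam at -0.22, both called lower, and Afp was not called (0.53 ± 0.32, adjusted p = 0.17 with limma).

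From 8 h to 1 d 2751 genes (20.8%) were called higher and 1443 (10.9%) lower. This step and the comparison with control share the 1 d arrays. Genes with the largest rises were Lgals3 (23.7-fold, 4.56 ± 0.49), Chil3 (17.2-fold, 4.10 ± 0.32), S100a6 (15.3-fold, 3.94 ± 0.48), Mmp12 (9.94-fold, 3.31 ± 0.41) and S100a8 (7.67-fold, 2.94 ± 0.49). Chil3 read 3.59 to 3.90 on the 5 arrays at 8 h, no higher than in controls, so its rise fell between 8 h and 1 d. All 14 ribosomal protein genes were called higher in this step (median 0.46), as were 13 of the 19 macrophage genes (median 1.06) and 15 of 24 cytoskeletal genes (median 0.76).

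The largest falls from 8 h to 1 d were of a different kind. Hspa1a fell 20.1-fold (-4.33 ± 0.48), from 9.38, 8.42, 9.24, 9.53 and 9.72 at 8 h, and Sult1e1, estrogen sulfotransferase, 17.2-fold (-4.10 ± 0.19), from 8.00, 7.56, 9.46, 8.78 and 7.41. Neither was called against control at 1 d, where Sult1e1 stood at 0.19 ± 0.19 (adjusted p = 0.42 with limma). Car3 (15.7-fold, -3.97 ± 0.39), Thrsp (11.5-fold, -3.52 ± 0.57) and Hectd2os (9.89-fold, -3.31 ± 0.42) fell in this step and were far below control at 1 d.

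How far the results depend on single arrays was asked of every gene. Of the 6623 called genes 5054 (76.3%) were called with each of the 10 arrays left out in turn, and of the 991 changed at least 2-fold 980 were. For 917 of the 991 all 5 arrays at 1 d lay beyond all controls, for 52 it was 4 arrays, for 18 it was 3, for 1 it was 2 and for 3 it was 1. In 5 of the 991 a single array carried over 50% of the summed shift, and in each that was array 1. Leaving out array 1 at 1 d gave 869 genes changed at least 2-fold, and leaving out array 2 gave 1164. Without arrays 1 and 2 together 6015 genes were called, of which 5423 were also called with all arrays, 592 were called only then, and 0 of the shared genes changed direction.

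Among the 8 genes with the largest SD over the 1 d arrays, those named here showed 2 patterns. In Saa2, Pck1 and Cidec array 1 alone stood apart, low for Saa2 and Pck1 and high for Cidec. In Pwwp3b, Fam171b, Sprr1a and Hspb1 arrays 1 and 2 were both far below arrays 3 to 5. Pwwp3b read 4.80, 4.30, 8.18, 8.32 and 8.28 at 1 d against 2.97 to 3.27 in controls (3.67 ± 0.45). Fam171b read 5.24 and 5.43 on arrays 1 and 2, inside the controls at 5.11 to 5.50, and 9.42, 8.87 and 8.51 on arrays 3 to 5. Its mean of 2.20 ± 0.42 is therefore the mean of arrays at 2 levels.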

How the data were processed

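RNA from liver was reverse transcribed with oligo-dT primers and hybridised as biotin-labelled cRNA to Affymetrix mouse arrays, per the labels' protocols. The authors deposited log2 values per probe set, and the submitters' processing notes name oligo 1.52.0 and RMA. That method corrects background, quantile-normalises arrays and summarises probes, so a shift shared by most genes can be lost. Array medians of the deposited values still ran from 5.481 to 5.629. No scan date was used, and arrays carry no read depth.

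Of 45101 probe sets 34945 named 1 gene, 932 several and 9160 none. For each of 18193 genes the probe set of highest mean (46 arrays) was kept. A gene was tested if at least 5 arrays exceeded 5.55823, the median of the whole table, which 13239 genes did and 4954 did not. For 5228 genes another probe set also passed, and 173 called genes had one called in the opposite direction. All arrays entered 1 limma fit (limma 3.58.1, R 4.3.3) (lmFit, eBayes) with a mean per group for 9 groups, which left 37 residual degrees of freedom. The contrasts were 1 d minus control, 1 d minus 8 h and 2 d minus 1 d. P-values were adjusted with Benjamini-Hochberg over all genes tested, and genes with an adjusted p under 0.05 were called. The fit was tested on simulated data.

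Gene groups held 951 genes in 48 lists, of which 785 were tested. They were described by counts and medians beside those of all genes, with no set test. The comparison, lists and tests were chosen with earlier results of these data known. Genes named are the 10 largest rises and falls among called genes whose groups did not overlap (clone names left out), up to 4 called members of each list, the 8 largest SDs at 1 d, the 5 largest rises and falls of each step, and a panel. For 4 measures of array quality, exact permutation tests (two-sided, smallest possible p 0.00794) were adjusted together. Same-numbered arrays at 1 d and control did not deviate together (r from -0.144 to -0.0109), so the numbers were not used as pairs. Promoter windows are RefSeq's, assembly GRCm38.p6. The alternatives were other scalings, low-value filters, averaged probe sets, a fit of the compared groups alone, variance models, array weights, a fold threshold, a covariate, a replicate block and arrays left out.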

Additional observations from a re-analysis of the deposited data

Results flagged for a closer look

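Over the 225 genes printed in the report, a single array stood apart from the other 4 of its group in 51 of 450 groups (11.3%), by a test that flags about 1 in 20 groups by chance. Many of these genes were chosen for their values, among them the 8 with the largest SD at 1 d, so the share cannot be read against that rate. Of these 34 were at 1 d, all on array 1 or 2, and 17 in controls. Values are log2 levels, with the range of the other 4 arrays after each.

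Array 1 at 1 d was far the lowest for Abcb11 (8.15 against 9.15 to 9.37), Alas2 (6.15 against 6.90 to 7.04), Fah (8.56 against 9.88 to 10.21), Fga (12.48 against 13 to 13.19), Fgb (12.76 against 13.66 to 13.92), Fgg (13.04 against 13.81 to 14.03), Gys2 (5.96 against 7.55 to 7.97) and Orm2 (7.08 against 9.67 to 10.56). It was so too for Pck1 (7.63 against 11.56 to 12.08), Pygl (8.25 against 9.35 to 9.79), Rgn (8.53 against 10.79 to 11.56), Saa1 (10.66 against 13.86 to 14.24), Saa2 (7.95 against 12.39 to 13.56), Shmt2 (7.79 against 8.45 to 8.70) and Slc2a2 (8.56 against 9.42 to 9.66). Array 1 at 1 d was far the highest for Cidec (7.80 against 3.30 to 3.89), Hspa1a (7.0 against 4.11 to 4.93), Lyve1 (9.22 against 8.02 to 8.30), Nop58 (10.12 against 8.30 to 8.81) and Rspo3 (6.22 against 5.52 to 5.68).

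Array 2 at 1 d was far the lowest for Cd14 (7.87 against 9.69 to 10.10), Cdt1 (7.55 against 8.21 to 8.45), Chac1 (6.57 against 8.62 to 9.23), Psmd8 (10.61 against 11.06 to 11.21), Rplp0 (12.45 against 12.65 to 12.69) and Rps3 (12.04 against 12.36 to 12.45). Array 2 at 1 d was far the highest for Aldh1b1 (8.28 against 5.02 to 5.92), Atp5a1 (11.48 against 11.02 to 11.07), Bank1 (6.11 against 5.53 to 5.66), Ccnd1 (9.21 against 8.00 to 8.15), Cyp7a1 (8.07 against 5.45 to 5.99), Gstm3 (10.19 against 8.39 to 8.67), Sucnr1 (6.51 against 4.59 to 4.77) and Tk1 (7.30 against 6.27 to 6.46).

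Control 1 was far the lowest for Slc2a2 (10.63 against 11.57 to 11.88). Control 1 was far the highest for Mmp14 (7.89 against 7.55 to 7.64), Prf1 (5.69 against 5.40 to 5.48) and Ube2c (5.08 against 4.51 to 4.62). Control 2 was far the lowest for Igf2bp3 (7.56 against 7.67 to 7.71). Control 3 was far the lowest for Dcn (9.51 against 9.82 to 9.90), Lyve1 (6.85 against 7.61 to 7.88), Mlkl (5.6 against 5.95 to 6.01), Scd1 (13.37 against 14.06 to 14.30) and Trp53inp1 (8.97 against 9.56 to 9.74). Control 3 was far the highest for F7 (9.76 against 9.67 to 9.69), Ier3 (5.00 against 4.42 to 4.59), Psmb7 (8.60 against 8.37 to 8.43) and Rplp0 (11.83 against 11.69 to 11.73). Control 5 was far the lowest for Cry1 (3.67 against 4.23 to 4.44). Control 5 was far the highest for Gsta2 (10.77 against 9.65 to 9.78) and Trib3 (7.59 against 6.59 to 6.83).

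The difference from control was not the same at neighbouring times, since 4194 genes were called from 8 h to 1 d and 4283 from 1 d to 2 d (limma). Among 3750 probe sets that name several genes or none and passed the filter, 1586 (42.3%) were called at 1 d against control, 553 higher and 1033 lower, and they entered no gene result.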

How the results depend on the processing

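The number of genes called at 1 d against control (6623) stayed within 1.5 times under every setting tried except a test against a 1.2-fold change (limma's treat). That test asks for more than any difference and called 2716 genes, 1632 higher and 1084 lower, 1191 from 8 h to 1 d and 1366 from 1 d to 2 d. With only the groups compared in the fit, 5707 genes were called at 1 d against control in place of 6623. The steps then gave 2746 and 2387 in place of 4194 and 4283, with fewer arrays to estimate the spread. Shifting each array to the same median made 59.4% of calls higher, quantile normalization 44.6% and cyclic loess 53.1%, against 49.9% as deposited. Gapdh integrity as a covariate left 5368 called, array weights gave 7544, and the replicate block 6568. Leaving out 1 array gave 5878 to 6786 called, 2952 to 3353 higher, 2926 to 3433 lower, 869 to 1164 changed at least 2-fold, 3607 to 4116 from 8 h to 1 d and 3770 to 4704 from 1 d to 2 d. Of the 205 genes that the naming rule picked 188 were called, 162 under every setting that tested them and 26 not under all, and 0 reversed. The stricter filter and the averaged probe sets left some of the 205 untested, which was not counted as a lost call. Without arrays 1 and 2 at 1 d the falls of G6pc, Elovl3, Egfr, Cdc20 and Ncr1 and the rises of Cyp4a14, Lyve1 and Dcn were no longer called. Gene group counts that moved by over 1.5 times with 1 array left out, other than those given in the report, were counts of at most 3. The causes were not tested.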

Other observations

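Arrays 1 and 2 at 1 d stood at opposite ends of their group in several measures. Array 2 correlated across genes with the 2 d arrays at a mean r of 0.965, above the 0.912 to 0.945 of the other 1 d arrays, while array 1 had the lowest value with the 8 h arrays, 0.933. The genes called at least 2-fold higher had a mean shift of 1.14 on array 2 and 1.55 to 1.76 on the others. The genes called at least 2-fold lower had a mean shift of -2.16 on array 1, -1.14 on array 2 and -1.62 to -1.47 on arrays 3 to 5. Limma's estimated array weights were 0.168 and 0.303 for arrays 1 and 2, 1.28 to 2.24 for arrays 3 to 5 and 1.03 to 1.99 for controls.

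A pair of further promoter motifs was searched on both strands of the same 300-base RefSeq windows. The antioxidant response element, searched as TGACNNNGC, was in 6 of 17 Nrf2 targets with a window, 3 of them among the 8 called higher, and in 16.5% of tested genes with one. The STAT element, searched as TTCNNNGAA, was in 5 of 19 acute phase genes, 2 of them among the 11 called higher, and in 8.27% of tested genes. A match describes these letters only.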
